A study of Homo sapiens with 8 samples.

Results

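The genes described here are 10 regulators of the G1 phase of the cell cycle: the cyclins CCND2, CCND3, CCNE1 and CCNE2, the cyclin-dependent kinases (CDKs) CDK2, CDK4 and CDK6, and the CDK inhibitors CDKN1A, CDKN1B and CDKN2D. They were taken by name from the array's gene annotation, which assigned them 25 of 41097 single-gene probe sets, and they are 10 of the 19775 genes measured. Messenger RNA was profiled in CUTLL1, a T-cell acute lymphoblastic leukemia line whose rearranged NOTCH1 gene is constitutively active. Cells received 1 microM PF-03084014, a gamma-secretase inhibitor that blocks NOTCH cleavage, 1 microM dexamethasone, a synthetic glucocorticoid, both compounds at 1 microM each (the combination), or the vehicle DMSO, all for 48 h, with 2 Affymetrix arrays per group. Whether the arrays of a group came from separate cultures is not in the labels, so the p-values cover no more than the spread seen between these arrays, which may be technical.

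D-type cyclins pair with CDK4 and CDK6 early in G1, and E-type cyclins pair with CDK2 later. Both kinases phosphorylate the retinoblastoma protein, which releases E2F factors to switch on genes of DNA replication. Inhibitors of the INK4 family, to which the CDKN2D product p19 belongs, bind CDK4 and CDK6, while the CIP/KIP inhibitors p21 (CDKN1A) and p27 (CDKN1B) act chiefly on CDK2 complexes. In T-cell leukemia NOTCH1 signalling promotes G1 progression, and glucocorticoids are known to arrest lymphoid cells in G1.

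Known targets of both compounds moved in these cells. The NOTCH target NRARP changed by -2.66 log2 units with PF-03084014 against DMSO (limma adjusted p = 0.00994), and TSC22D3, a glucocorticoid receptor target, by 3.34 with dexamethasone (adjusted p = 0.00143). All 14 T-lineage and immature thymocyte markers had a mean intensity above 100, whereas 3 of 4 B-lineage, 3 of 5 myeloid, 1 of 1 erythroid and 4 of 5 epithelial and stromal markers were below it. The summed intensity of the T-lineage list was 50862 to 51639 with PF-03084014, 50064 to 50614 with dexamethasone, 51415 to 56235 with the combination and 46983 to 47551 with DMSO. With the combination against DMSO, RAG1, CD2 and CD3E of this list were called higher and PTCRA lower, CD79A of the B-lineage list higher (0.86) and ITGAM of the myeloid list lower (-1.72). The summed myeloid list was 319 to 381 with the combination and 528 to 574 with DMSO, and the B-lineage list 646 to 760 and 477 to 523. The part of these markers in the results was not tested. The second combination array stood apart, with a median intensity of 76.3, where the other 7 ranged between 61.8 and 63.9. Replicate arrays of the combination differed with an SD of 0.411 log2 units over genes of mean intensity at least 100, against 0.171 in each single-compound group and 0.217 in DMSO. Because 1 spread was pooled over all groups, errors of contrasts with the combination tend to be too small. Those of a single compound against DMSO tend to be too large, so counts of calls do not compare the treatments evenly. The arrays measured RNA of whole cultures, in which a shift of cells between cycle phases and a change in RNA per cell cannot be told apart.

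The promoters of 4 of the 6 genes called with the combination (at a limma adjusted p under 0.05) are shown, those with an entry in the sequence table: CDK4, CCNE1 and CDKN1A, which were lower, and CDKN2D, which was higher. Each is the 250 bases before the gene's start from RefSeq (GRCh38.p14), written 5′ to 3′ on the gene's own strand. Entries were found for 7 of the 10 genes; CCND2, CDK2 and CCNE2 had none.
CDK4, chr12:57752311-57752560, minus strand: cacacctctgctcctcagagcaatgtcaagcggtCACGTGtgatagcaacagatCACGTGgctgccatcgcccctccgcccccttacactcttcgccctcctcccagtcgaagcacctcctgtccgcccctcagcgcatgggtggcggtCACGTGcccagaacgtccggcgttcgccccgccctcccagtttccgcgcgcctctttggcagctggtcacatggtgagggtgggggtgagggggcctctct
CCNE1, chr19:29811741-29811990, plus strand: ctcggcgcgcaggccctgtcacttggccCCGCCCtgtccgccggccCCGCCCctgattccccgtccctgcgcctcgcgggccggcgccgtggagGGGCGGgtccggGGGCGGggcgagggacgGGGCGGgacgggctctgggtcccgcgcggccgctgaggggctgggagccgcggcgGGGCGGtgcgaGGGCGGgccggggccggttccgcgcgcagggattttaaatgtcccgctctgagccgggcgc
CDKN1A, chr6:36678464-36678713, plus strand: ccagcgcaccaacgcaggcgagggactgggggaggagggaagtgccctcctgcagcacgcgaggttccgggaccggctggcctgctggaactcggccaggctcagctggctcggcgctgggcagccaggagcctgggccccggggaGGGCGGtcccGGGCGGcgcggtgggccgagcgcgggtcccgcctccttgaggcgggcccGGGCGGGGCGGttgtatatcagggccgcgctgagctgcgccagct
CDKN2D, chr19:10568980-10569229, minus strand: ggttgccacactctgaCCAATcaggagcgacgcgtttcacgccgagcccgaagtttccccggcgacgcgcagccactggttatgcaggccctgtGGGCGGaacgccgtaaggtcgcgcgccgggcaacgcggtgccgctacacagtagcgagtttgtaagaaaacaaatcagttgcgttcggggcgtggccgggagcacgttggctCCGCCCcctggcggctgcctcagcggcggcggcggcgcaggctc
Capitals mark the E-box CACGTG in CDK4, the GC box GGGCGG in CCNE1, CDKN1A and CDKN2D, and also CCAAT in CDKN2D, each searched on both strands. CDK4 held 3 E-boxes, a palindrome bound by basic helix-loop-helix factors, and 6.34% of all 35116 promoter windows of this length held at least 1. GC boxes, bound by SP1-type factors, numbered 7 in CCNE1, 4 in CDKN1A, some of them overlapping, 3 in CDK4, where they are left in lower case, and 2 in CDKN2D, and 42.6% of all windows held one. A CCAAT box, bound by NF-Y, occurred once in CDKN2D and in 32% of all windows. An RBPJ site TGGGAA (20.8% of all windows), a FOXO site GTAAACA (2.98%), the glucocorticoid response element (0.327%) and the E2F sites TTTCCCGC, TTTCGCGC, TTTGCCGC or TTTGGCGC (2.79%) had 0 matches in these 4 windows, which says only that those letters are not in them.

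The combination lowered the cyclin E and CDK2 transcripts that drive late G1. CCNE1, which encodes cyclin E1, had intensities of 484 and 502 with the combination, 821 and 885 with PF-03084014, 843 and 866 with dexamethasone, and 876 and 958 with DMSO. The combination arrays lay far below all others, while the groups given a single compound overlapped each other. Against DMSO, CCNE1 fell with the combination by 0.89 log2 units (SE 0.067, limma adjusted p = 0.00367), and single compounds gave -0.10 ± 0.067 (PF-03084014, adjusted p = 0.643) and -0.10 ± 0.067 (dexamethasone, adjusted p = 0.787), neither called. It also fell relative to dexamethasone alone (-0.79, adjusted p = 0.0118) and to PF-03084014 alone (-0.79, adjusted p = 0.0149).

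CDK2, the catalytic partner of cyclin E, had intensities of 2282 and 2287 with the combination, 2804 and 2798 with dexamethasone, 3363 and 3448 with PF-03084014, and 3606 and 3484 with DMSO. These 4 groups did not overlap, and each step down the order was seen on both arrays. CDK2 fell by 0.63 with the combination against DMSO (SE 0.033, limma adjusted p = 0.00227), by 0.58 against PF-03084014 (adjusted p = 0.0103) and by 0.29 against dexamethasone (adjusted p = 0.0165). With dexamethasone alone it stood at -0.34 ± 0.033 and missed the threshold (adjusted p = 0.0681), and with PF-03084014 alone at -0.06 ± 0.033 (adjusted p = 0.588). Averaging each gene's bright and dim probe sets ended the calls of both genes: against DMSO the combination then stood at -0.15 for CDK2 (adjusted p = 0.599) and -0.23 for CCNE1 (adjusted p = 0.355), and CDK2 against dexamethasone turned to 0.063. In the contrasts with a single compound, calls depended on the arrays used for the error, for these genes as over all genes. Against dexamethasone the calls of CDK2 and CCNE1 ended without dexamethasone replicate 1 or 2 (adjusted p = 0.107 to 0.117 and 0.0886 to 0.0889). Against PF-03084014 they ended without PF-03084014 replicate 1 or 2 or dexamethasone replicate 1 or 2 (0.0645 to 0.0820 and 0.0723 to 0.105).

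CCNE2, which encodes cyclin E2, had 2372 and 3067 with the combination, 3493 and 3561 with dexamethasone, 4126 and 4070 with PF-03084014, and 3880 and 3927 with DMSO. Both combination arrays were the lowest of the 8, but they lay farther apart than any other pair. CCNE2 fell by 0.53 with the combination against DMSO (SE 0.12, limma adjusted p = 0.0459), with -0.15 ± 0.12 for dexamethasone and 0.07 ± 0.12 for PF-03084014, neither called (adjusted p = 0.835 and 0.919). Against dexamethasone the combination stood at -0.39 ± 0.12 (adjusted p = 0.118), and against PF-03084014 at -0.60 ± 0.12 (adjusted p = 0.0715). These differences were -0.20 and -0.42 without combination replicate 1, and -0.57 and -0.79 without combination replicate 2. In such fits the lone combination array is assumed to vary like the arrays of the other groups. The call against DMSO ended without any 1 array of DMSO, PF-03084014 or dexamethasone (adjusted p = 0.103 to 0.177), and 4 of 11 other settings kept it.

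**Figure D1:**
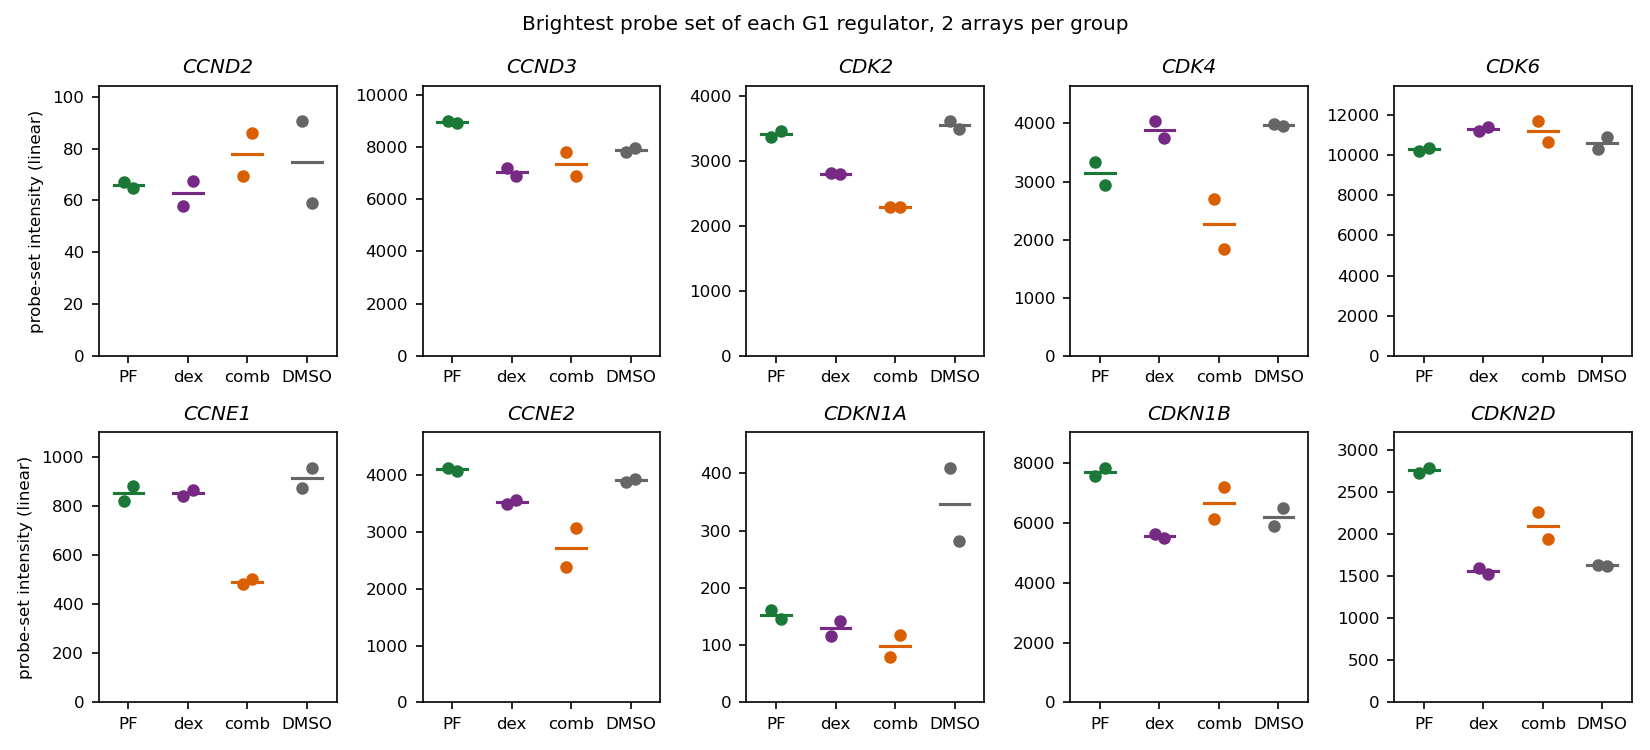
Linear probe-set intensity of the brightest probe set of each gene, by treatment (PF, PF-03084014; dex, dexamethasone; comb, combination; DMSO). Points are single arrays and lines are means of 2 arrays. CCNE1 with the combination lies at 484 and 502, below every other array, and CDKN1A with DMSO lies at 410 and 282, above every treated array.

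Of the kinases that pair with D cyclins, CDK4 was called lower with the combination, while CDK6 values depended on the probe set. CDK4 had intensities of 2694 and 1841 with the combination, 3346 and 2939 with PF-03084014, 4039 and 3751 with dexamethasone, and 3988 and 3960 with DMSO. Arrays with PF-03084014, alone or combined, were all lower than arrays without it, and dexamethasone overlapped DMSO. CDK4 fell by 0.84 with the combination against DMSO (SE 0.18, limma adjusted p = 0.0448), and stood at -0.34 ± 0.18 with PF-03084014 (adjusted p = 0.542) and at -0.03 ± 0.18 with dexamethasone (95% interval -0.49 to 0.43). The difference of -0.81 ± 0.18 between the combination and dexamethasone missed the threshold (adjusted p = 0.0641). It was -1.08 without combination replicate 1 but -0.53 without combination replicate 2. Against PF-03084014 the combination stood at -0.49 ± 0.18 (adjusted p = 0.241), at -0.77 without combination replicate 1 and at -0.22 without combination replicate 2. The CDK4 call against DMSO ended without any 1 array of DMSO, PF-03084014 or dexamethasone (adjusted p = 0.0918 to 0.170).

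CDK6, by its brightest probe set, had 11675 and 10655 with the combination, 10208 and 10360 with PF-03084014, 11185 and 11363 with dexamethasone, and 10283 and 10895 with DMSO. Ordered by level, neighbouring groups overlapped, although both dexamethasone arrays lay above both DMSO arrays, and none of the 5 comparisons of groups was called. For this probe set the limma 95% intervals against DMSO were -0.07 to 0.22 for the combination, -0.19 to 0.10 for PF-03084014 and -0.05 to 0.24 for dexamethasone, all in log2 units. Other CDK6 probe sets stood lower with PF-03084014, as given below.

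CCND3, the D cyclin with a bright probe set in these cells, had 8980 and 8898 with PF-03084014, 7179 and 6890 with dexamethasone, 7807 and 6885 with the combination, and 7813 and 7952 with DMSO. PF-03084014 alone lay above DMSO on both arrays and dexamethasone alone below it, each by small steps. These were 0.18 ± 0.066 with PF-03084014 (limma adjusted p = 0.333), -0.16 ± 0.066 with dexamethasone (0.561) and -0.10 ± 0.066 with the combination (0.358), none called. Against PF-03084014 the combination stood at -0.29 ± 0.066 (adjusted p = 0.102). Without combination replicate 1, CCND3 with the combination stood at -0.20 against DMSO and at -0.38 against PF-03084014. That fit rests on the single combination array that stood apart. Without combination replicate 2 the differences were -0.014 and -0.20.

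CCND2, which encodes cyclin D2, was dim on every array. Its brightest probe set gave 69.3 and 86.1 with the combination, 67.0 and 64.8 with PF-03084014, 58.0 and 67.7 with dexamethasone, and 90.5 and 58.9 with DMSO, and all neighbouring groups overlapped. The other 3 probe sets lay between 7.23 and 63.3, and the highest of 27 control probe sets for Bacillus transcripts read 64.7 to 119 per array. Its differences from DMSO were 0.08 ± 0.26 with the combination, -0.15 ± 0.26 with PF-03084014 and -0.22 ± 0.26 with dexamethasone, with limma intervals of up to -0.87 to 0.43, so changes of that size could not be seen at this intensity.

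The inhibitor genes moved in different directions. CDKN2D had intensities of 2728 and 2790 with PF-03084014, 1600 and 1526 with dexamethasone, 2261 and 1941 with the combination, and 1632 and 1623 with DMSO. All 4 groups were separated, with PF-03084014 highest, the combination between it and DMSO, and dexamethasone just under DMSO. CDKN2D rose by 0.76 ± 0.077 with PF-03084014 against DMSO (limma adjusted p = 0.0305), by 0.36 ± 0.077 with the combination (adjusted p = 0.0406) and by 0.42 ± 0.077 with the combination against dexamethasone (adjusted p = 0.0397). With dexamethasone alone it stood at -0.06 ± 0.077 (adjusted p = 0.934), and with the combination against PF-03084014 at -0.40 ± 0.077 (adjusted p = 0.0706). The last value was -0.51 without combination replicate 1 and -0.29 without combination replicate 2. Each of the 3 calls ended without DMSO replicate 1 or 2, PF-03084014 replicate 1 or 2, or dexamethasone replicate 1 or 2. The adjusted p was then 0.114 to 0.190 with PF-03084014, 0.0894 to 0.160 for the combination and 0.0839 to 0.188 for the combination against dexamethasone. The log2 differences in those fits stayed at 0.75 to 0.78, 0.36 to 0.37 and 0.39 to 0.46. Over all genes, too, fewer were called in those fits in each of the 3 comparisons.

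CDKN1A, a p53 target whose product p21 restrains CDK2, had 79.3 and 117 with the combination, 161 and 145 with PF-03084014, 116 and 142 with dexamethasone, and 410 and 282 with DMSO. Every treated array lay below both DMSO arrays, and the DMSO arrays themselves differed widely. CDKN1A fell by 1.82 with the combination against DMSO (SE 0.28, limma adjusted p = 0.0177). Both combination values lay under the highest Bacillus control of their own array (81.6 and 119), so this level was not shown to be above background and the size of the fall is uncertain. It stood at -1.15 ± 0.28 with PF-03084014 (adjusted p = 0.166) and at -1.40 ± 0.28 with dexamethasone (adjusted p = 0.245), neither called. The combination differed from dexamethasone by -0.42 ± 0.28 (adjusted p = 0.390) and from PF-03084014 by -0.67 ± 0.28 (adjusted p = 0.287). The call against DMSO ended without DMSO replicate 1, PF-03084014 replicate 1 or PF-03084014 replicate 2 (-1.55 to -1.82, adjusted p = 0.0516 to 0.0839).

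CDKN1B, whose product p27 holds cyclin E and CDK2 inactive in quiescent cells, had 6118 and 7205 with the combination, 7549 and 7840 with PF-03084014, 5638 and 5486 with dexamethasone, and 5903 and 6490 with DMSO. Both PF-03084014 arrays were above all others and both dexamethasone arrays below all others, while the combination overlapped DMSO. The differences from DMSO were 0.31 ± 0.090 with PF-03084014 (limma adjusted p = 0.227), -0.15 ± 0.090 with dexamethasone (0.748) and 0.10 ± 0.090 with the combination (0.506), none called. Against dexamethasone the combination stood at 0.26 ± 0.090 (adjusted p = 0.159). It was 0.37 without combination replicate 1 and 0.14 without combination replicate 2.

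**Figure D2:**
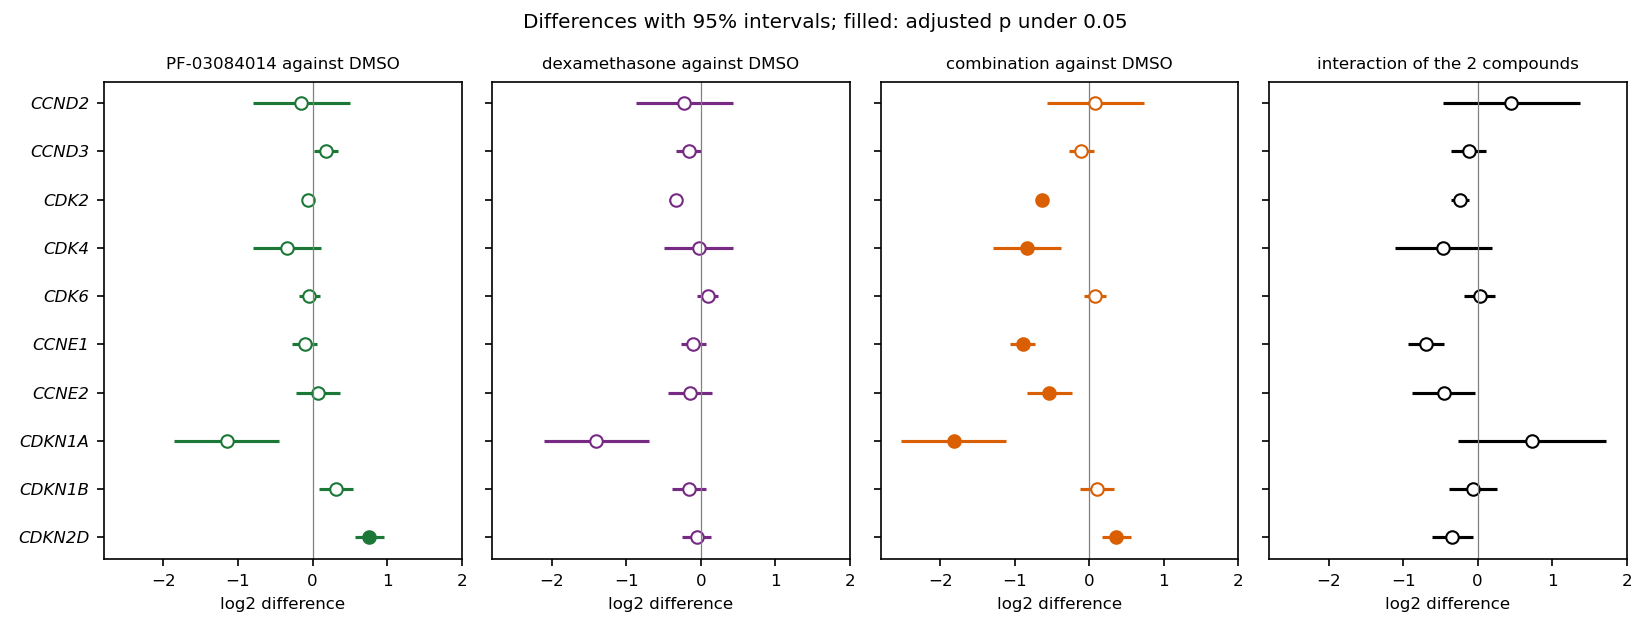
Log2 differences of the 10 genes for PF-03084014, dexamethasone and the combination, each minus DMSO, and the interaction (the combination minus the sum of the single effects). Bars are limma 95% intervals and filled points have an adjusted p under 0.05. In the combination panel 5 genes are called below 0 and CDKN2D above it.

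By comparison, limma called 1 of the 10 genes with PF-03084014 against DMSO, CDKN2D, where 0.824% of all genes were called, and 4 of 10 had an unadjusted p under 0.05, against 13.3% of all genes. With dexamethasone 0 of 10 were called, where 0.101% of all genes were, and 2 of 10 (CDK2 and CDKN1A) had an unadjusted p under 0.05, against 8.96% of all genes. With the combination 6 of 10 were called, against 12% of all genes: 5 lower (5.54% of all genes) and 1 higher (6.43%). These 3 comparisons share the DMSO arrays and 1 pooled error. All of the 10 genes except CCND2 (70.3) had a mean intensity above 100, and brighter genes were called more often. With genes of mean intensity under 100 left out, the combination against DMSO had 1613 of 10793 genes called higher and 1543 lower. With the combination against dexamethasone 3 were called (7.26% of all genes), CDK2 and CCNE1 lower and CDKN2D higher, and against PF-03084014 2 were called lower (2.87% of all genes), CDK2 and CCNE1. The medians of the 10 log2 differences were -0.32 for the combination, -0.05 for PF-03084014 and -0.15 for dexamethasone, beside 0.06, 0.02 and 0.01 over all genes.

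The combination and DMSO arrays did not overlap for 7 of the 10 genes, a separation seen in 52.7% of all genes. Leaving out combination replicate 1 or 2 leaves 1 array, and the widest replicate spread then drops out of the pooled error. Calls in those fits therefore do not show that a result holds without the array left out. Over the 8 fits without 1 array, the combination against DMSO gave CCNE1 -0.96 to -0.83 log2 units and CDK2 -0.66 to -0.61. CDK4 ranged from -1.11 to -0.56, CCNE2 from -0.72 to -0.35, CDKN1A from -2.10 to -1.54 and CDKN2D from 0.25 to 0.47. In the 6 fits without 1 array of the other groups 2 or 3 of the 10 genes were called, with 415 to 682 of all genes higher and 414 to 600 lower. CDK2 and CCNE1 were called in all 8 fits. Shifting all arrays to a common median lowered the combination's all-gene median by 0.13 log2 units, and 463 genes were then called higher and 989 lower, against 1272 and 1096. Of 11 alternative settings with all arrays kept or only the 2 groups compared, 9 kept the call of CDK2 against DMSO, 9 that of CCNE1, 6 that of CDKN2D and 4 that of CCNE2, and of 10 settings 8 kept CDKN1A and 5 kept CDK4. With PF-03084014 alone, 5 of 11 kept CDKN2D (log2 difference of 0.75 at the lowest, adjusted p = 0.00277 to 0.227). The highest value came from a dim CDKN2D probe set near background and gives no size. Under the median shift CDKN2D stood at 0.23 with the combination against DMSO and was not called (adjusted p = 0.378). Relative to the all-gene median, a measure that such a shift cannot alter, CDKN2D lay at 0.30 and CDKN1A, CCNE1, CDK4, CDK2 and CCNE2 at -1.88, -0.96, -0.90, -0.70 and -0.60.

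Whether the compounds acted additively was asked with the interaction, the combination's log2 difference minus the sum of the single ones. For CCNE1 the single effects summed to -0.20 and the combination gave -0.89, an interaction of -0.69 ± 0.095 (limma adjusted p = 0.314). For CDK2 the sum was -0.40 and the combination -0.63 (interaction -0.24 ± 0.047, adjusted p = 0.315), and for CDKN2D 0.70 and 0.36 (-0.34 ± 0.11, adjusted p = 0.470). For CDKN1A the combination at -1.82 was less than the sum of -2.55 (0.74 ± 0.39, adjusted p = 0.614). Its combination values lay under the highest Bacillus control of their arrays, so the size of this interaction is uncertain. limma called 0 of the 10 genes and 0% of all genes in the interaction. At an unadjusted p under 0.05 it had 4 of the 10 (CDK2, CCNE1, CCNE2 and CDKN2D) and 9.09% of all genes. Without combination replicate 1, CCNE2 (-0.27, adjusted p = 0.0441) and CDKN2D (-0.45, adjusted p = 0.0399) were called, along with 417 genes higher and 601 lower over all genes in that fit. It rests on the single combination array that stood apart.

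Probe sets of 1 gene can target different transcript ends, so each of the 25 was also fitted among all 41097, of which 7.95% were called with the combination against DMSO. CDK6 had 7 probe sets. The brightest, already described, stood at 0.08 with the combination, whereas 243000_at gave 504 and 451 with the combination and 764 and 687 with DMSO and was called lower (-0.60, adjusted p = 0.0237). Probe set 235287_at had 235 and 165 with the combination against 332 and 410 with DMSO (-0.90, adjusted p = 0.122), and 231198_at had 118 and 65.7 against 161 and 194 (-1.01, adjusted p = 0.155). The remaining CDK6 probe sets 207143_at, 224848_at and 224851_at stood at 0.02, 0.16 and -0.26, none called. With PF-03084014 against DMSO all 7 were negative, none called. The brightest stood at -0.04, 207143_at at -0.22, 224848_at at -0.19 and 243000_at at -0.34 (limma adjusted p = 0.250). Probe sets 224851_at, 231198_at and 235287_at stood at -0.59, -0.60 and -0.87 (adjusted p = 0.398, 0.650 and 0.332).

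The second CCNE2 probe set, 211814_s_at, had 236 and 157 with the combination and 442 and 461 with DMSO, and was called lower by -1.23 (limma adjusted p = 0.0390). In this larger fit the brighter CCNE2 probe set, at -0.53, was not called (adjusted p = 0.0631). The CDK4 probe set (adjusted p = 0.0622) and the brighter CDKN2D probe set (0.0554) also lost their calls against DMSO there. Against dexamethasone the brighter CDKN2D probe set lost its call as well (0.0565). The second CDKN2D probe set, 213586_at, was dim, with 61.1 and 91.1 with the combination and 22.4 and 19.7 with DMSO. The combination values lay under the highest Bacillus control of their arrays, and the DMSO values near the control median (20.0 and 18.9), so no size of difference is given for it although limma called it higher. Some dim probe sets opposed the bright one: 1562028_at of CCND3 stood at 0.76 and 211803_at of CDK2 at 0.46 with the combination, none called, with the second combination array the highest of the 8 in both (211 and 162). A further CDK2 probe set, 211804_s_at, had 291 and 427 with the combination and 396 and 467 with DMSO. It stood at -0.29 (limma adjusted p = 0.447), and at -0.05 against dexamethasone (adjusted p = 0.940), neither called. For CCNE1, 242105_at had 32.9 and 36.1 with the combination and 28.1 and 23.1 with DMSO. All lay under the highest Bacillus control of their arrays, and it was not called.

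**Figure D3:**
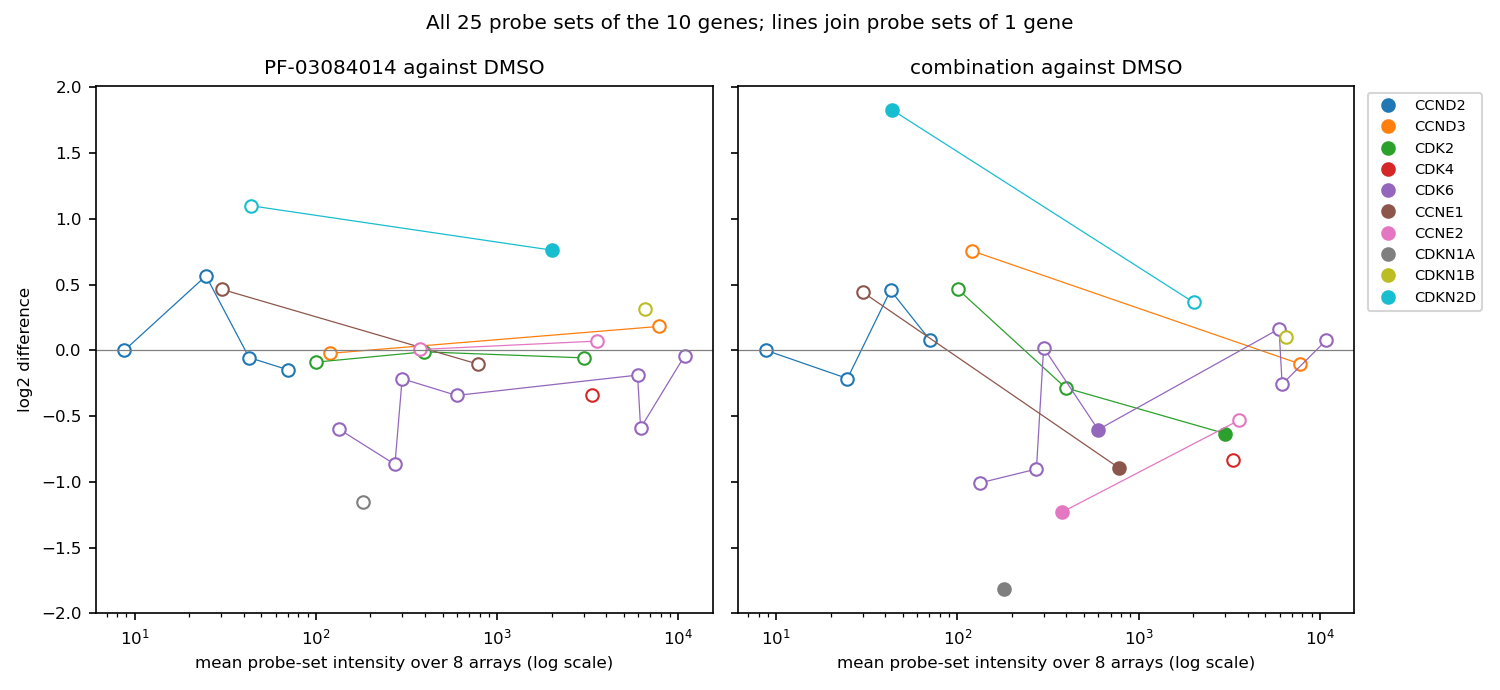
Log2 difference of all 25 probe sets against their mean intensity over 8 arrays (log axis), for PF-03084014 minus DMSO and the combination minus DMSO. Lines join probe sets of 1 gene and filled points have an adjusted p under 0.05 among all probe sets. The brighter CDKN2D probe set lies above 0 in each panel and is called with PF-03084014 only. The CDK6 probe sets spread from 0.16 to -1.01 with the combination.

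Other genes of the G1/S pathway were counted in lists. Of 24 E2F target genes of DNA replication, limma called 17 lower and 0 higher with the combination against DMSO, with a median of -0.47 log2 units, where 5.54% of all genes were lower. With genes of mean intensity under 100 left out, 23 of the 24 were called lower, beside 1543 of 10793 genes. The origin recognition gene ORC1 had the largest fall (-0.99, SE 0.065, adjusted p = 0.00325). The same list had 15 lower against dexamethasone (3.99% of all genes), 13 lower against PF-03084014 (1.77%) and 0 called for either compound alone against DMSO, with 3 (PF-03084014) and 9 (dexamethasone) of 24 at an unadjusted limma p under 0.05. Without combination replicate 2 the median of the list against DMSO was -0.42, and without DMSO replicate 1 or 2 it was -0.50 and -0.46. Fewer of its genes were called without either DMSO array, and fewer of all genes. With array weights the 15 against dexamethasone became 4, while the calls over all genes fell from 1435 to 208. Without dexamethasone replicate 1 or 2 the 15 calls ended, as did most calls over all genes. The list medians were then -0.35 and -0.42. With array weights the 13 against PF-03084014 became 0, while the calls over all genes fell from 568 to 18. The 13 calls also ended without any 1 PF-03084014 or dexamethasone array, and most ended without either DMSO array. In those fits most calls over all genes ended too, and the list median stayed at -0.45.

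Among 21 measured G1 kinase regulators outside the 10 genes, 5 were called lower and 1 higher with the combination against DMSO. For these lists the share of all genes called in that comparison was 5.54% lower and 6.43% higher. The phosphatase gene CDC25A, which activates CDK2, fell most (-0.92, limma adjusted p = 0.00601), and CCNG2, a cyclin gene linked to cell cycle exit, rose (0.57, adjusted p = 0.00794). CCNG2 was also the only gene of this list called with PF-03084014 alone (0.61, adjusted p = 0.0314), where 0.824% of all genes were called. Of 15 RB and E2F genes, 4 were lower with the combination and 0 higher, of which E2F5 fell most (-0.78, adjusted p = 0.00410). Of 15 mitotic cyclins and kinases 4 were lower and 0 higher, of which AURKA fell most (-0.38, adjusted p = 0.0291). The medians of these lists were -0.24, -0.15 and -0.20.

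**Figure D4:**
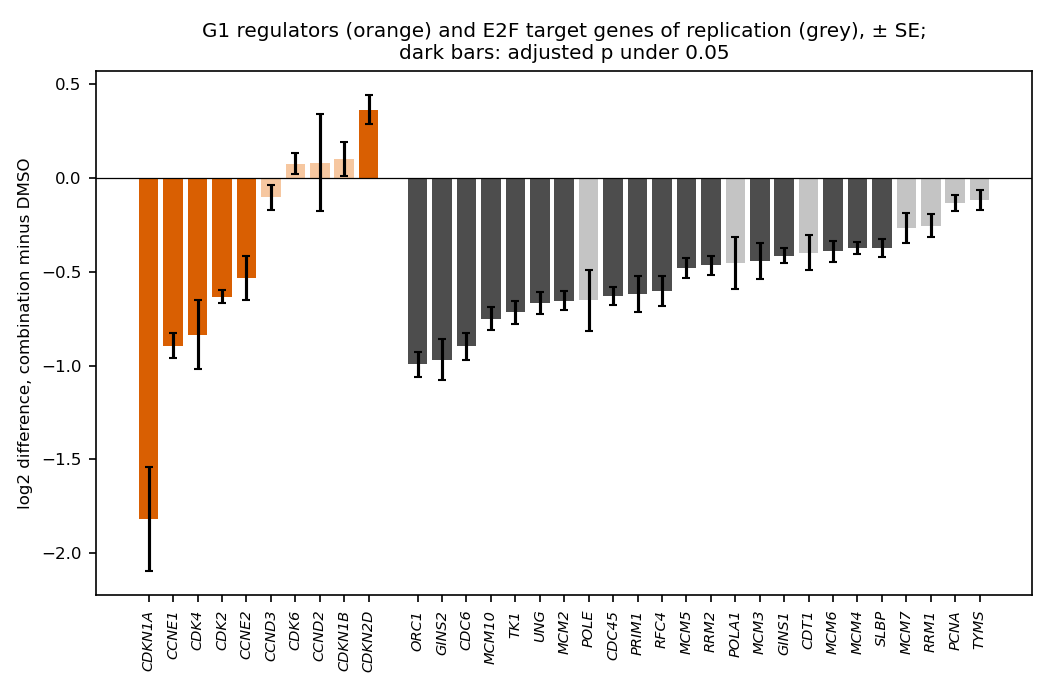
Log2 difference of the combination minus DMSO for the 10 G1 regulators (orange) and 24 E2F target genes of DNA replication (grey), with limma standard errors. Dark bars have an adjusted p under 0.05. All 24 replication genes lie below 0, and CDKN2D is the only called bar above it.

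For each called gene, the genes of mean intensity at least 100 with the most similar profile were found by the root mean square difference of centred log2 values over the 8 arrays, among 10792 others. CCNE1 was nearest to ORC1 (0.0625 log2 units) and PLCXD1 (0.0745), and CDK2 to NEMP1 (0.0506) and PIM3 (0.0538). CDK4 was nearest to RANBP1 (0.0535) and EIF2B3 (0.0545), and CCNE2 to FAM221A (0.0583) and MICB (0.0588). CDKN2D was nearest to IER2 (0.0674) and JARID2 (0.0830). CDKN1A had no equally close match, with SLC7A11 at 0.281 and SDC4 at 0.312. The SD of a gene's own log2 values over the 8 arrays, for scale, was 0.388 for CCNE1 and 0.755 for CDKN1A.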

How the data were processed

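An Affymetrix 3 prime kit was used to label 200 ng of total RNA, per the labels' protocols. The authors deposited linear probe-set intensity values for 54675 probe sets on 8 arrays. How these were summarised, background-corrected and normalized is not given in the sources used here. Intensities were floored at 16 and converted to log2. The floor held 13.2% to 15.2% of each array's values. Of the probe sets, 41097 listed 1 gene, 1801 several (left out) and 11777 none. The brightest probe set stood for each of 19775 genes.

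The 8 arrays entered 1 limma 3.58.1 model (R 4.3.3) of 4 group means, which leaves 4 residual degrees of freedom, with trended eBayes. Errors are given as ± SE. A gene was called when its two-sided p, Benjamini-Hochberg adjusted across the genes of that contrast, was under 0.05. The code was tested on simulated data for PF-03084014 against DMSO with 19775 genes: 62% of genes changed by 1 log2 unit and 91% of those changed by 2 were called. With 2 arrays against 2, an exact permutation test cannot go below 0.333 and was not used. The number of arrays limits precision.

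The 10 genes, the context lists, the rule for named genes (all 10 members, treatment checks, the 2 nearest profiles per called member, and the largest called rise and fall of each list) and the alternatives were chosen with earlier results of these data known. Some genes of the context and marker lists are not reported here.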

Additional observations from a re-analysis of the deposited data

Results flagged for a closer look

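CCNE2 arrays given PF-03084014 lay on opposite sides of their comparison arrays without and with dexamethasone, although neither difference was called (0.07 ± 0.12, limma adjusted p = 0.919, and -0.39 ± 0.12, adjusted p = 0.118). Without dexamethasone, both PF-03084014 arrays (4126 and 4070) lay above both DMSO arrays (3880 and 3927). With dexamethasone present, both combination arrays (2372 and 3067) lay below both dexamethasone arrays (3493 and 3561). The flag rests on those positions alone and the difference was not tested by it. limma's interaction for CCNE2 was -0.46 ± 0.17 (adjusted p = 0.524), and without combination replicate 1 it was -0.27.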

How the results depend on the processing

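The number of the 10 genes called depended on the settings, and the cause was not tested. With PF-03084014 against DMSO the count was 1, and became 0 after a shift to a common median, with a gene's probe sets averaged, without _x_at and _s_at probe sets, without trend, with only the groups compared or with the replicate block, and 2 when genes of mean intensity under 100 were left out. Over all genes the 163 calls of PF-03084014 became 116 with the shift, 93 with probe sets averaged, 73 without trend and 79 with the block. They became 123 of 17100 without _x_at and _s_at probe sets and 426 of 10793 with the filter at 100. With array weights 464 genes were called higher and 268 lower, against 94 and 69 without them. With dexamethasone against DMSO 0 became 1 with a floor of 32 or array weights. Over all genes its 20 calls became 41 with that floor and 111 with array weights. With the combination against DMSO 6 became 3 with a floor of 32, the mean of probe sets, no _x_at and _s_at probe sets, no trend or every probe set fitted, 2 with array weights and 0 with only the groups compared. Over all genes its 2368 calls became 2156 with that floor, 1590 with the mean of probe sets and 863 with array weights. They became 1744 of 17100 without _x_at and _s_at probe sets, 1943 without trend and 3268 of 41097 with every probe set fitted. Without _x_at and _s_at probe sets CCND2, CDK4 and CDKN1A were not measured, so the calls of CDK4 and CDKN1A could not be kept. The dim probe set 213586_at then stood for CDKN2D. Against dexamethasone 3 became 5 with a pseudocount of 16 or the filter at 100, 1 with array weights and 0 with only the groups compared. Against PF-03084014 2 became 4 with the pseudocount, 5 with the filter, 1 with the mean of probe sets or array weights and 0 with only the groups compared. The genes counted need not be the same in each setting. With the mean of probe sets CDK2 stood at -0.099 against PF-03084014 (limma adjusted p = 0.795) and CCNE1 at -0.41. Over all genes the 1435 calls against dexamethasone became 1908 with the pseudocount, 2364 of 10793 with the filter and 208 with array weights. The 568 against PF-03084014 became 699 with the pseudocount, 945 of 10793 with the filter, 285 with the mean of probe sets and 18 with array weights. Fits of only the groups compared had 4 arrays and called 0 of all genes in each contrast, and the interaction could not be fitted that way.

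Leaving out 1 array gave counts of 0 to 1 for PF-03084014, 0 for dexamethasone, 2 to 7 for the combination, 0 to 6 against dexamethasone, 0 to 6 against PF-03084014 and 0 to 2 for the interaction. Where these counts rose above 0, the highest came from fits with a single combination array, whose pooled error lacked that group's spread. The fits without 1 array turned the direction only of differences that were not called. These ranged, against DMSO, from -0.46 to 0.16 (CCND2) and -0.083 to 0.00016 (CDK6) for PF-03084014, from -0.53 to 0.088 (CCND2) and -0.083 to 0.024 (CDK4) for dexamethasone, and from -0.23 to 0.39 (CCND2) and -0.017 to 0.22 (CDKN1B) for the combination. Against dexamethasone the ranges were -0.031 to 0.15 (CCND3) and -0.081 to 0.051 (CDK6), and for the interaction -0.040 to 0.092 (CDK6) and -0.18 to 0.060 (CDKN1B).

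Averaging the probe sets of a gene turned CCND2 to 0.091 (PF-03084014 against DMSO), -0.0098 (combination against PF-03084014) and -0.0037 (interaction). It turned CCND3 to 0.33 (combination against DMSO), 0.25 (against PF-03084014) and 0.25 (interaction), and CDK2 to 0.063 (combination against dexamethasone, called in the fit of the brightest probe set) and 0.12 (interaction). CDK6 became -0.091 (dexamethasone) and -0.36 (combination against DMSO), CCNE1 0.18 (PF-03084014), and CDKN2D 0.26 (dexamethasone) and 0.17 (combination against PF-03084014). Without _x_at and _s_at probe sets the dim CDKN2D probe set was used, at 0.58 (dexamethasone), 0.73 (combination against PF-03084014) and 0.15 (interaction). Quantile normalization turned CCND2 to -0.041 (combination against DMSO) and CDK6 to 0.015 (combination against dexamethasone). The shift to a common median turned CCND2 (-0.049), CDK6 (-0.055) and CDKN1B (-0.029) for the combination against DMSO, CCND3 (-0.093) against dexamethasone, and CDK6 against PF-03084014 (-0.013) and in the interaction (-0.13). It changed the share of called genes that were higher to 44.8%, 100% and 31.9% for PF-03084014, dexamethasone and the combination against DMSO, against 57.7%, 85% and 53.7% without it, and to 17.6% and 24.2% for the combination against dexamethasone and PF-03084014, against 45% and 38.4%.

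The replicate numbers were not shown to pair the arrays: deviations of same-numbered arrays correlated at 0.0524 to 0.208 between groups. With the replicate block, CDKN2D with PF-03084014 had an adjusted p = 0.0540 and CCNE2 with the combination 0.0550. Intensity over background limits CCND2 on all arrays, CDKN1A with the combination and the dimmer CDKN2D probe set.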
